A study of Mus musculus with 64 samples.

Results

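The excitatory neurons of the mouse cortex were followed here through 36 genes that are commonly used to mark them, in bulk RNA sequencing of 2 brain regions after psilocybin or saline. The genes were taken by symbol, from general knowledge of cortical markers and with earlier results of these data known. They were matched by gene identifier to rows of the deposited count table. All 36 were found among the 55401 genes of the table, and all 36 were among the 18971 genes that passed the filter on low counts. They fall into 13 genes of cortical excitatory neurons in general, 6 genes of the upper layers, 11 genes of the deep layers and 6 genes with a mixed laminar pattern.

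The study asked how a single dose of psilocybin changes transcription in the prefrontal cortex (PFC) and the hypothalamus. Male C57BL/6J mice, fed chow and housed in groups, were injected once into the peritoneum at 10 weeks of age, with psilocybin at 3 mg/kg or with isotonic saline. PFC and whole hypothalamus were taken from each of the 32 mice either 3 h or 4 weeks later, always in the morning, which gave 8 groups of 8 libraries. The 4-week animals were therefore older than the 3 h animals, and time since injection and age cannot be told apart. No group carried a transgene or mutation, and the saline animals received the same injection without drug.

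Cortical excitatory neurons use glutamate as their transmitter and arise from progenitors of the dorsal forebrain, under transcription factors such as Emx1, Lhx2 and the Neurod family. Upper layer neurons mainly connect cortical areas with one another, whereas deep layer neurons send axons to the thalamus, brainstem and spinal cord. Each layer keeps its own set of transcription factors and signalling genes into adult life. Most hypothalamic neurons come from another part of the embryonic forebrain, and its glutamatergic neurons use a different vesicular glutamate transporter.

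Levels are given as CPM, the counts of a gene divided by the library's scaled total and brought to a common depth, with scaling by the trimmed mean of M values. They are comparable between libraries for 1 gene but not between genes. After 2 libraries with 200066 and 211111 counts were set aside, 62 libraries of 8061033 to 70361839 counts (median 18287978.5) remained, with 7 or 8 per group. Among 210 pairs of libraries of 1 group, the lowest chi-square per degree of freedom between their counts was 3.85, so no such pair agreed within sampling noise. The regional labels were checked against markers. The summed level of 14 hypothalamic markers was 466.2 to 2954 CPM in the 31 hypothalamus libraries and 1.95 to 26.1 CPM in the 31 PFC libraries, where 13 of the 14 were below 1 CPM at the median and 4 were at 0. Other markers also differed, with the sum of 10 thalamic markers at 340 to 983 CPM (median 769) in hypothalamus and 132 to 199 CPM (median 160.0) in PFC, and that of 8 hippocampal markers at 117 to 295 CPM (median 246) and 95.2 to 201 CPM (median 125). PFC psilocybin 4 weeks replicate 7 had an olfactory marker sum of 122 CPM against a PFC median of 5.53 CPM. The part of these signals in the members' levels was not tested. RNA was extracted in 4 pools, and since pools A and B held hypothalamus and pools C and D held PFC, region and pool set cannot be told apart. All 4 PFC libraries of cage 6 had high striatal markers, with a summed level of 10 genes of 619 to 1652 CPM against 206 to 680 CPM in the other 27 PFC libraries. Hypothalamus psilocybin 4 weeks replicate 5 and PFC psilocybin 3 h replicate 7 stood furthest from their groups by limma quality weights (0.0276 and 0.120), and results that rest on them are given with and without them.

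The genes of excitatory neurons in general separated the regions most. All 13 were higher in PFC than in hypothalamus by the edgeR quasi-likelihood test, with a median log2 difference of 2.63 against 0.02 for all genes tested. Of the 36 members, 27 were higher and 7 were lower in PFC, where 39.6% and 36.5% of all genes were called higher and lower. In a bulk sample, fewer cells of a type and less RNA per cell cannot be told apart. The count of 34 called members was the same with the animal as a block, which compares both regions of each mouse.

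Emx1, a homeobox transcription factor of the dorsal forebrain, had the largest fitted difference in favour of PFC. Its level was 8.39 to 22.3 CPM (median 13.5) in PFC and 0 to 0.663 CPM (median 0.134) in hypothalamus, where 3 libraries held no count. The regions did not overlap, and the fitted log2 fold change was 6.38 (SE 0.15, 83.0-fold). Neurod6, a basic helix-loop-helix factor of postmitotic excitatory neurons, followed at 41.2 to 131 CPM (median 71.0) in PFC against 0.22 to 1.71 CPM (median 1.01) in hypothalamus, a log2 fold change of 6.31 (SE 0.11). Within each combination of treatment and time, the regional difference of Neurod6 exceeded that of Emx1, such as 6.37 against 5.69 after psilocybin at 3 h. The lowest PFC library of Neurod6 lay far above the highest hypothalamus library. Neurod2, a factor of the same family that acts in the maturation of these neurons, ranged over 37.6 to 68.5 CPM (median 51.2) in PFC and over 0.168 to 3.98 CPM (median 0.954) in hypothalamus, again without overlap, with a log2 fold change of 5.58 (SE 0.14).

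The windows before the starts of Neurod6 and Neurod2 are shown because these were the basic helix-loop-helix genes with the widest gap between regions, and because factors of this family bind the short motif called the E-box. Both come from RefSeq (GRCm38.p6), cover 250 bases immediately upstream of the annotated start and lie on the minus strand, Neurod6 at chr6:55681264-55681513 and Neurod2 at chr11:98329646-98329895. They are written 5′ to 3′, with matches to the E-boxes CAGATG or CAGCTG, searched on both strands, in capitals.
Neurod6: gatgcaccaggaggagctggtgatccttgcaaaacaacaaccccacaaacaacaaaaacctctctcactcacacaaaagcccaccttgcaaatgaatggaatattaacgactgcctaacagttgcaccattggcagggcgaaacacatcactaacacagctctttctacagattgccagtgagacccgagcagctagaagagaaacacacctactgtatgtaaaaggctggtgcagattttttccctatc
Neurod2: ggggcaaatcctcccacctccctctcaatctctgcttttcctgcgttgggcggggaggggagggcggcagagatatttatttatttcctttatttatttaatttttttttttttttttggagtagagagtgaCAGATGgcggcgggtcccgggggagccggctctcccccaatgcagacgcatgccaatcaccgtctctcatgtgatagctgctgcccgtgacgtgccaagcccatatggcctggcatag
The Neurod6 window held 0 matches and the Neurod2 window held 1, to CAGATG. Other forms of the E-box were not searched. Among all 32851 such windows, 14.4% held CAGATG and 13% held CAGCTG. Of the 26 members with a window in the table, 6 held CAGATG and 3 held CAGCTG in at least 1 window, but these members have 46 windows in all, so a share of members cannot be set against the share of windows. A match is a description of these letters only.

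Slc17a7, which encodes the vesicular glutamate transporter VGLUT1 that loads glutamate into synaptic vesicles of cortical neurons, was at 1059 to 1575 CPM (median 1268) in PFC. In hypothalamus it was at 8.87 to 102 CPM (median 32.3), a log2 fold change of 5.08 (SE 0.17) with no overlap. Nrgn, the calmodulin-binding postsynaptic protein neurogranin, was at 698 to 1980 CPM (median 1073) in PFC and at 37.4 to 167 CPM (median 51.1) in hypothalamus (log2 fold change 4.29, SE 0.097). Every PFC library again lay above every hypothalamus library. Mef2c, an activity-dependent transcription factor, was at 427 to 1000 CPM (median 746) in PFC and at 31.5 to 77.0 CPM (median 51.0) in hypothalamus, a log2 fold change of 3.81 (SE 0.085) without overlap.

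Zbtb18, a zinc finger repressor needed for the growth of the cortical excitatory lineage, was at 236 to 533 CPM (median 394) in PFC against 30.2 to 78.4 CPM (median 65.6) in hypothalamus, a log2 fold change of 2.63 (SE 0.061). Bhlhe22, a helix-loop-helix repressor of cortical projection neurons, was at 19.2 to 63.5 CPM (median 37.7) in PFC against 3.52 to 9.44 CPM (median 6.56), a log2 fold change of 2.57 (SE 0.084). Neither gene overlapped between the regions. The remaining 5 genes of this class had log2 fold changes of 1.52 to 2.47: Neurod1, Camk4, the Src-like adaptor Sla, the calcium sensor Hpca and the homeobox gene Lhx2. In all, 12 of the 13 genes had every PFC library above every hypothalamus library, as 6.57% of all genes tested did.

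The laminar genes did not share this pattern. Among the 11 deep layer genes, 5 were higher in PFC, 5 were lower and 1 did not pass the test, with a median log2 difference of -0.18. Tbr1, the T-box factor of layer 6 neurons, was at 71.1 to 149 CPM (median 112) in PFC and at 3.52 to 11.4 CPM (median 6.73) in hypothalamus (log2 fold change 4.12, SE 0.082). Fezf2, the zinc finger factor that specifies subcortical projection neurons, was at 12.3 to 41.2 CPM (median 20.7) in PFC and at 1.16 to 3.61 CPM (median 1.93) in hypothalamus (log2 fold change 3.26, SE 0.11). These were the deep layer genes with no overlap in favour of PFC. Bcl11b, Sox5 and Etv1 were also higher, by 1.27, 0.70 and 0.26 on the log2 scale.

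Nxph4, which encodes a secreted ligand of neurexins and marks the deepest cortical neurons, went the other way. It was at 0 to 4.33 CPM (median 2.05) in PFC, with 1 library at 0, and at 12.8 to 34.8 CPM (median 18.8) in hypothalamus. Its log2 fold change was -3.27 (SE 0.15), and it was the only member with every PFC library below every hypothalamus library, as 4.69% of all genes tested were. Foxp2, the forkhead factor of layer 6 neurons that striatal neurons also use, was at 6.00 to 26.4 CPM (median 12.3) in PFC and at 22.8 to 49.7 CPM (median 40.6) in hypothalamus (log2 fold change -1.54, SE 0.10). Its ranges overlapped, and without the 4 PFC libraries of cage 6 the difference was -1.69. Their Foxp2 level had a median of 23.1 CPM against 11.3 CPM in the other PFC libraries.

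Syt6, a synaptotagmin of layer 6 neurons, was at 9.35 to 46.1 CPM (median 19.0) in PFC and at 24.2 to 57.4 CPM (median 34.6) in hypothalamus, a log2 fold change of -0.72 (SE 0.11). Tle4, a corepressor of corticothalamic neurons, was at 30.1 to 68.5 CPM (median 51.2) and at 45.2 to 75.2 CPM (median 65.6), a log2 fold change of -0.37 (SE 0.048). Deptor, an inhibitor of mTOR, was at 21.2 to 61.3 CPM (median 36.8) and at 19.3 to 63.8 CPM (median 44.7), a log2 fold change of -0.22 (SE 0.077, edgeR adjusted p = 0.0101). All of these ranges overlapped. Pcp4, a small calmodulin regulator, was at 58.7 to 187 CPM (median 104) in PFC and at 69.0 to 347 CPM (median 112) in hypothalamus and did not pass the test (log2 fold change -0.18, edgeR adjusted p = 0.0798), although without the cage 6 PFC libraries the difference was -0.24 (adjusted p = 0.0192).

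Of the 6 upper layer genes, 4 were higher in PFC and 1 was lower, with a median log2 difference of 0.39. Cux2, a homeobox factor of upper layer neurons, had a log2 fold change of 1.47 and was the only one with no overlap, at 95.8 to 169 CPM in PFC and 31.4 to 62.0 CPM in hypothalamus. Otof, Rasgrf2 and Cux1 were higher by 0.56, 0.54 and 0.25. Calb1, the calcium buffer calbindin, which interneurons and many hypothalamic neurons also make, was at 110 to 268 CPM (median 168) in PFC and at 170 to 249 CPM (median 197) in hypothalamus. It was lower in PFC by the test (log2 fold change -0.18, SE 0.061, edgeR adjusted p = 0.00676) although the ranges overlapped. Rorb, the nuclear receptor of layer 4, was at 25.9 to 65.4 CPM (median 47.0) and at 27.7 to 56.2 CPM (median 43.7) and did not pass the test (log2 fold change 0.08, edgeR adjusted p = 0.256). By limma-voom its difference was 0.10 (adjusted p = 0.0548), or 0.11 and called without PFC psilocybin 3 h replicate 7 (adjusted p = 0.0428).

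The genes of mixed laminar pattern were mostly higher in PFC, 5 of 6, with a median log2 difference of 1.04. Lmo4, a LIM-only cofactor of cortical patterning, was at 185 to 305 CPM (median 248) in PFC and at 30.3 to 56.5 CPM (median 39.5) in hypothalamus, a log2 fold change of 2.61 (SE 0.047) with no overlap. Pou3f1, Foxp1, Lmo3 and Bcl6 were higher by 1.48, 1.13, 0.95 and 0.16. Cdh13, a cadherin held by a lipid anchor, was lower in PFC, at 45.0 to 104 CPM (median 74.3) against 69.7 to 133 CPM (median 107), a log2 fold change of -0.54 (SE 0.055) with overlapping ranges. The direction of the regional difference was the same within each of the 4 combinations of treatment and time for 33 of the 36 members, the exceptions being Calb1, Pcp4 and Rorb.

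**Figure D1:**
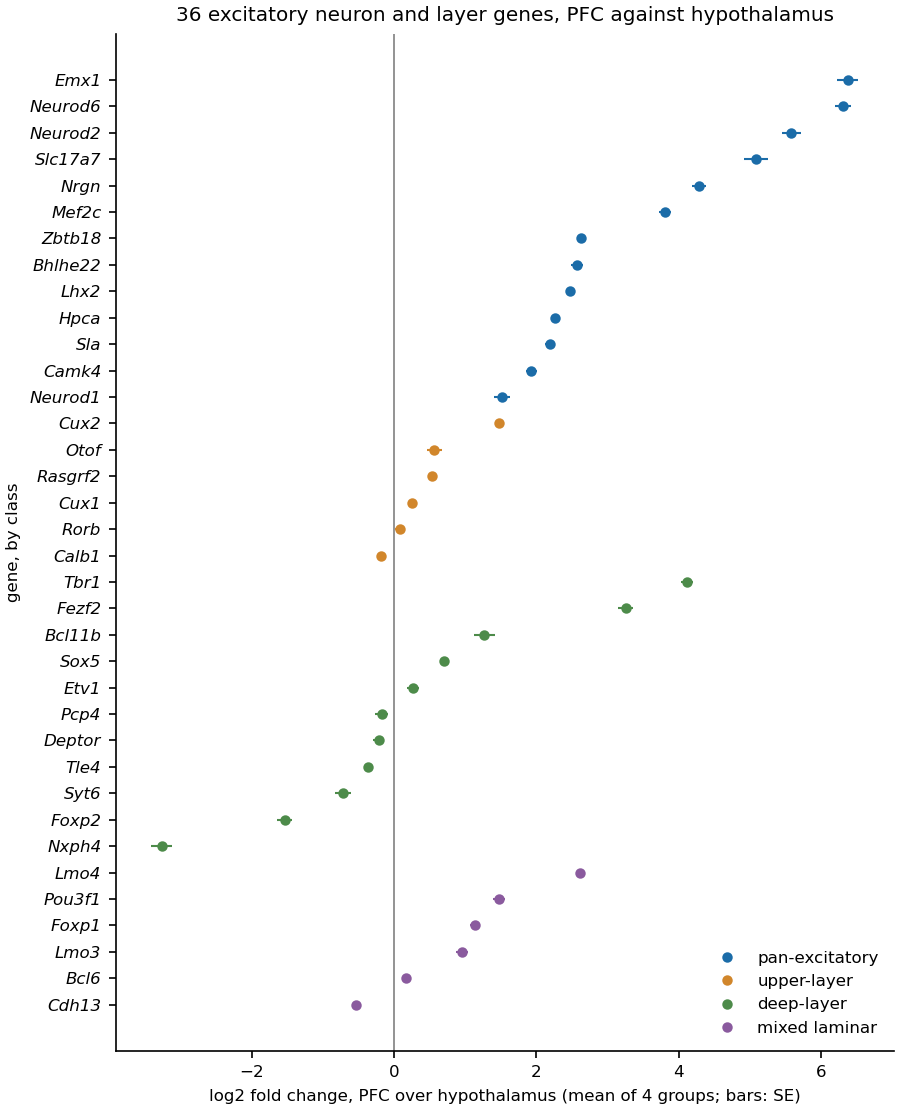
Log2 fold change of PFC over hypothalamus (horizontal axis) for each of the 36 genes (vertical axis, grouped and coloured by class), as the mean of 4 groups with its standard error. The excitatory genes at the top all lie to the right of 0, from 1.52 to 6.38, while the deep layer genes run from -3.27 for Nxph4 to 4.12 for Tbr1.

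Other genes of excitatory neurons that are not among the 36 were read for comparison from a list of 29. Of these, 20 were higher in PFC and 8 were lower by edgeR, beside 39.6% and 36.5% of all genes. The synaptic zinc transporter gene Slc30a3 (log2 fold change 4.37) and Lamp5 (4.36) were among those higher in PFC. Slc17a6, which encodes VGLUT2, the vesicular transporter of hypothalamic glutamate neurons, was lower by 4.32 on the log2 scale, at 7.02 to 28.2 CPM in PFC and 220.1 to 376 CPM in hypothalamus. The layer 6 receptor gene Ntsr1 was lower in PFC as well (log2 fold change -1.69).

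Per length, as RPKM, which divides CPM by the exon length of the gene in kilobases, the members covered a wide range of levels in PFC. At the median, Nrgn was at 739 RPKM, Slc17a7 at 235 RPKM, the neuronal calcium sensor hippocalcin (Hpca) at 208 RPKM, Pcp4 at 102 RPKM and Lmo4 at 70.1 RPKM. At the other end were Sla at 1.55 RPKM, Nxph4 at 1.22 RPKM and Foxp2 at 0.751 RPKM. In hypothalamus, Pcp4 came first at 109 RPKM and Hpca second at 41.5 RPKM.

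The spread among PFC libraries of 1 group also differed by gene. The within-group standard deviation of the log2 level was widest for some of the deep layer genes. It was 1.11 for Nxph4, 0.56 for Foxp2, 0.54 for Syt6, 0.47 for Etv1 and 0.45 for Fezf2. Nxph4 had a low level, with a median of 2.05 CPM and 1 library at 0. Among deep layer genes the standard deviation went down to 0.25 for Sox5 and 0.23 for Tle4. It was narrowest for Cux1 at 0.13 and Hpca at 0.14. Its median was 0.287 over the members and 0.288 over all genes tested. In the cage 6 libraries with high striatal markers, the median levels of Bcl11b (71.7 against 44.8 CPM) and Syt6 (29.0 against 18.6 CPM) were above those of the other PFC libraries, while those of Fezf2 (13.8 against 21.1 CPM), Neurod6 (52.6 against 72.0 CPM), Emx1 (10.3 against 13.6 CPM) and Slc17a7 (1088 against 1342 CPM) were below, and the part of the striatal signal in these levels was not tested.

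In PFC at 3 h, no member differed between psilocybin and saline by edgeR after adjustment over all genes, whereas limma-voom with quality weights, which gives libraries that stand apart less weight and treats the mouse as a random block, called 3 members higher. These were the upper layer gene Calb1, the zinc finger repressor gene Zbtb18 and the helix-loop-helix gene Bhlhe22. edgeR called 0 of 36 members and 0.0105% of all genes. At an unadjusted p under 0.05 it counted 2 members, Calb1 and Bhlhe22, beside 7.23% of all genes, and DESeq2 called 0 members. limma-voom called 3 of 36 members beside 6.57% of all genes, or 5.18% (983 genes) counting those called higher alone against 263 genes lower, and counted 7 unadjusted beside 21.5%. The median log2 difference of the members by edgeR was 0.05, against -0.01 for all genes, and 21 of 36 were positive.

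Calb1 was at 110 to 247 CPM (median 216) after psilocybin and at 136 to 268 CPM (median 160) after saline. The ranges overlapped throughout, because psilocybin replicate 7 was the lowest library of its group and saline replicate 3, at 268 CPM, was the highest of all 16. The log2 fold change was 0.26 (SE 0.12, adjusted p = 0.670) by edgeR and 0.43 (SE 0.11, adjusted p = 0.0110) by limma-voom. Within extraction pools C and D the difference in mean log2 level was 0.27 and 0.24. Without psilocybin replicate 7 edgeR gave 0.35 (adjusted p = 0.165).

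Bhlhe22 was at 37.1 to 63.0 CPM (median 44.2) after psilocybin and at 27.9 to 63.5 CPM (median 34.3) after saline, again with saline replicate 3 the highest. Its log2 fold change was 0.31 (SE 0.15, adjusted p = 0.687) by edgeR and 0.44 (SE 0.13, adjusted p = 0.0274) by limma-voom, and 0.29 and 0.38 within the pools. Zbtb18 was at 293 to 505 CPM (median 430) after psilocybin and at 320 to 513 CPM (median 365) after saline, so the groups overlapped for this gene too. Its log2 fold change was 0.17 (SE 0.11, adjusted p = 0.784) by edgeR and 0.30 (SE 0.086, adjusted p = 0.0253) by limma-voom. The difference was 0.32 within pool C and 0.03 within pool D. Neurod1, a helix-loop-helix factor of excitatory neurons that is the next gene by edgeR, was at 7.57 to 13.3 CPM (median 11.2) after psilocybin and at 6.23 to 11.4 CPM (median 7.58) after saline. The groups overlapped and neither procedure called it, with a log2 fold change of 0.43 (SE 0.22, adjusted p = 0.702) by edgeR and 0.58 (SE 0.20, adjusted p = 0.0628) by limma-voom.

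The 3 limma-voom calls depended on the weights that this procedure gives to libraries. Psilocybin replicate 7 had a weight of 0.120, and saline replicates 3, 5 and 4 had weights of 0.275, 0.286 and 0.323. Without psilocybin replicate 7 limma-voom still called these 3 members, with log2 fold changes of 0.45 for Calb1, 0.44 for Bhlhe22 and 0.31 for Zbtb18. Without weights 0 of the 36 members and 1 gene in all were called, with log2 fold changes of 0.26 for Calb1, 0.35 for Bhlhe22 and 0.18 for Zbtb18. With the cage number as a replicate block in place of the pool, limma-voom called 0 members and 134 genes in all, with 0.38 for Calb1, 0.40 for Bhlhe22 and 0.26 for Zbtb18 and limma-voom adjusted p of 0.0616, 0.0864 and 0.0896. Without the PFC libraries of cage 6 edgeR gave 0.26 for Calb1, 0.32 for Bhlhe22 and 0.18 for Zbtb18, and called 0 members. It also called 0 members with each of the 16 PFC libraries of this time left out in turn, while the log2 fold change of Calb1 ran from 0.22 to 0.39, that of Bhlhe22 from 0.24 to 0.46 and that of Zbtb18 from 0.13 to 0.27.

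Markers of other tissue were also read in these 16 libraries. The medians after psilocybin and saline were 139 and 118 CPM for the hippocampal sum, 168 and 144 CPM for the thalamic sum, 257 and 245 CPM for the striatal sum and 4198 and 3428 CPM for the oligodendrocyte sum, higher after psilocybin in each case. Those of the microglial sum (582 and 593 CPM), the astrocyte sum (2306 and 2334 CPM) and the endothelial sum (166 and 178 CPM) were lower. All of these ranges overlapped between treatments, and their part in the 3 limma-voom calls was not tested.

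**Figure D2:**
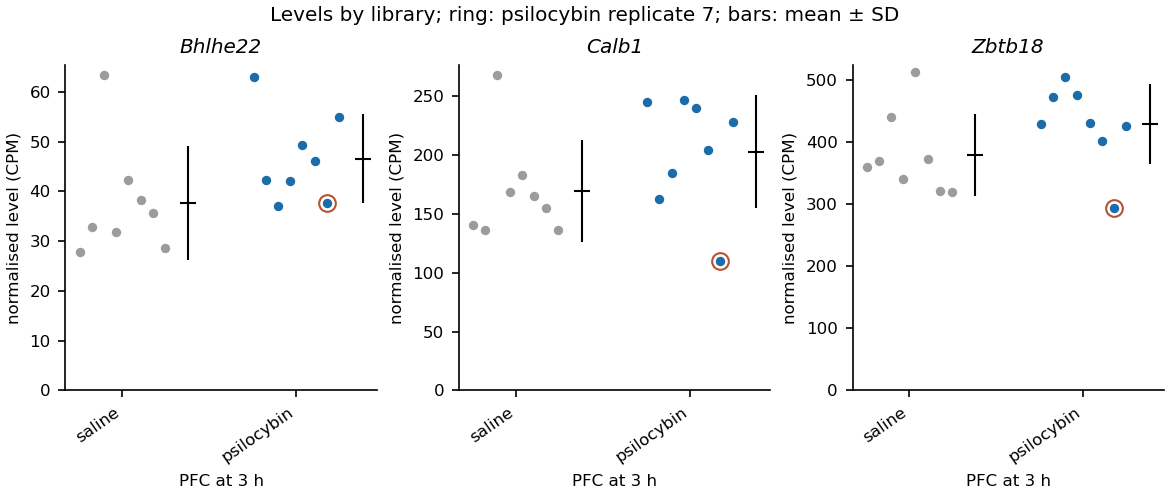
Levels in CPM (vertical axis) of Bhlhe22, Calb1 and Zbtb18 in each PFC library at 3 h after saline or psilocybin (horizontal axis), with the mean and standard deviation of each group, and a ring around psilocybin replicate 7. The groups overlap for all 3 genes, and the ringed library is at 110 CPM for Calb1, the lowest of its panel.

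**Figure D3:**
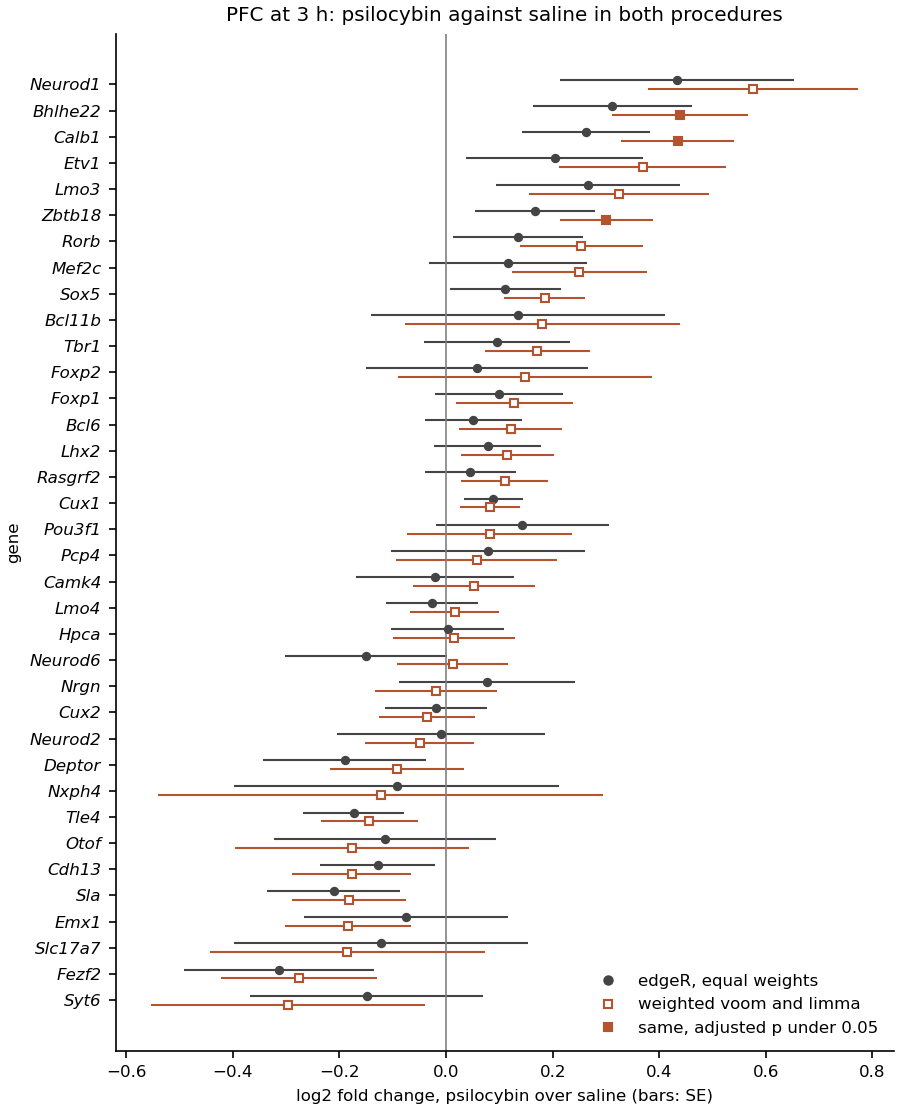
Log2 fold change of psilocybin over saline in PFC at 3 h (horizontal axis) for the 36 genes (vertical axis), by edgeR and by limma-voom with quality weights, with standard errors, and filled squares for an adjusted p under 0.05. Calb1, Zbtb18 and Bhlhe22 are the filled squares, at 0.43, 0.30 and 0.44, and no edgeR value is called.

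In PFC at 4 weeks, edgeR called 0 members, DESeq2 called 0 and limma-voom called 0, and edgeR called 0% of all genes. At an unadjusted p under 0.05 edgeR counted 0 members beside 2.4% of all genes, and limma-voom 1 beside 4.93%. The member median was 0.00. The smallest edgeR p belonged to Bhlhe22, at 26.1 to 50.9 CPM (median 40.6) after psilocybin and 19.2 to 44.4 CPM (median 31.8) after saline, with a log2 fold change of 0.24 (SE 0.15) and an adjusted p of 1. Bcl6, a zinc finger repressor, was at 17.5 to 26.0 CPM (median 21.6) and at 17.6 to 23.0 CPM (median 20.01), a log2 fold change of 0.13 (SE 0.095). Pcp4 was at 84.5 to 126 CPM (median 102) and at 85.9 to 187 CPM (median 109), a log2 fold change of -0.21 (SE 0.19). The treatment groups overlapped for all 3 genes.

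In hypothalamus at 3 h, edgeR, DESeq2 and limma-voom each called 0 members, and edgeR called 0% of all genes. At an unadjusted p under 0.05 edgeR counted 4 members beside 1.78% of all genes and limma-voom 3 beside 5.75%, and the member median was -0.06 against -0.00 for all genes. Pou3f1, a POU factor of cortical projection neurons and of other neurons, was at 2.96 to 4.84 CPM (median 4.12) after psilocybin and at 3.45 to 8.48 CPM (median 6.17) after saline. Its ranges overlapped, and the log2 fold change was -0.58 (SE 0.18, edgeR adjusted p = 1). Neurod1 was at 1.66 to 6.74 CPM (median 3.47) and at 2.06 to 3.05 CPM (median 2.69), a log2 fold change of 0.55 (SE 0.24). Lmo4 was at 30.3 to 48.3 CPM (median 34.7) and at 34.9 to 46.2 CPM (median 40.1), a log2 fold change of -0.19 (SE 0.092). Neither of these pairs of groups was apart, and the other member counted was Hpca, at -0.23.

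In hypothalamus at 4 weeks, edgeR, DESeq2 and limma-voom again called 0 members, and edgeR called 0% of all genes. At an unadjusted p under 0.05 edgeR counted 1 member beside 9.61% of all genes and limma-voom 3 beside 4.25%, and the member median was -0.02. Nrgn was at 38.1 to 167 CPM (median 53.2) after psilocybin and at 37.4 to 71.7 CPM (median 48.0) after saline, where 1 psilocybin library, replicate 5, held the value of 167 CPM. The log2 fold change was 0.37 (SE 0.17, edgeR adjusted p = 0.471), and without that library it was 0.07. Tbr1 was at 4.90 to 11.4 CPM (median 7.72) and at 4.46 to 9.07 CPM (median 6.85), a log2 fold change of 0.28 (SE 0.16), and Hpca was at 91.6 to 199.9 CPM (median 139.7) and at 97.9 to 186 CPM (median 113), a log2 fold change of 0.18 (SE 0.11). The groups overlapped for both.

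Whether the response to psilocybin differed between regions or times was tested directly. For PFC against hypothalamus at 3 h, edgeR called 0 members and 0% of all genes, with 1 member at an unadjusted p under 0.05 beside 2.78% of all genes. That member was Pou3f1, whose response was higher in PFC by 0.72 on the log2 scale (SE 0.24, adjusted p = 1). For 3 h against 4 weeks in PFC, edgeR called 0 members and 0% of all genes, with 0 members unadjusted beside 3.08% of all genes. DESeq2 and limma-voom called 0 members in both, and limma-voom counted 4 and 1 unadjusted, beside 14.9% and 8.27% of all genes.

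Of the 29 other excitatory genes, edgeR and limma-voom called 0 in each of the 4 psilocybin comparisons. In PFC at 3 h they called 0.0105% and 6.57% of all genes. At an unadjusted p under 0.05 edgeR counted 1, 0, 2 and 0 of the 29 in PFC at 3 h, PFC at 4 weeks, hypothalamus at 3 h and hypothalamus at 4 weeks. The shares of all genes there were 7.23%, 2.4%, 1.78% and 9.61%. The smallest p values in PFC at 3 h belonged to Ntsr1 (log2 fold change -0.51, SE 0.16, edgeR adjusted p = 0.453), the orphan receptor gene Nr4a2 (0.57) and the sulfatase gene Sulf2 (-0.16). In PFC at 4 weeks they belonged to Whrn (-0.15), Rprm (-0.20) and Ntsr1 (-0.19). In hypothalamus they belonged to Slc30a3 (0.55), Wfs1 (-0.30) and Crym (-0.79) at 3 h, and to Nell2 (-0.13), Cck (0.29) and Parm1 (-0.10) at 4 weeks.

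Between harvest times, 1 member was called in every comparison. Bcl6, the zinc finger repressor that promotes neurogenesis in the developing cortex and also acts in immune and other cells, was lower at 4 weeks than at 3 h in both regions and under both treatments. The 4 time comparisons share no libraries, but PFC and hypothalamus come from the same mice. In PFC after saline, Bcl6 was at 24.1 to 30.2 CPM (median 28.9) at 3 h and at 17.6 to 23.0 CPM (median 20.01) at 4 weeks. No 4-week library reached the lowest 3 h library, which 0.322% of all genes share in that direction, and the log2 fold change was -0.51 (SE 0.092, edgeR adjusted p = 0.000216). In PFC after psilocybin it was at 20.9 to 35.4 CPM (median 29.5) and then at 17.5 to 26.0 CPM (median 21.6), a log2 fold change of -0.43 (SE 0.095, edgeR adjusted p = 0.00256). Here the times overlapped through psilocybin replicate 7 at 3 h, at 20.9 CPM, and without it the value was -0.49 (adjusted p = 0.000318).

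In hypothalamus after saline, Bcl6 was at 22.4 to 32.7 CPM (median 26.5) at 3 h and at 15.2 to 21.1 CPM (median 18.1) at 4 weeks, without overlap, as for 0.669% of all genes in that direction. The log2 fold change was -0.60 (SE 0.095, edgeR adjusted p = 5.5e-05). After psilocybin it was at 19.8 to 34.7 CPM (median 25.6) and then at 14.9 to 20.4 CPM (median 17.6), with a narrow overlap, and the log2 fold change was -0.60 (SE 0.092, edgeR adjusted p = 1.75e-05), or -0.58 without replicate 5 at 4 weeks. Within the extraction pools the difference in mean log2 level was -0.51 and -0.50 for PFC saline, -0.45 and -0.39 for PFC psilocybin, -0.61 and -0.59 for hypothalamus saline, and -0.52 and -0.66 for hypothalamus psilocybin. In fold terms the 4-week level was 0.704, 0.743, 0.661 and 0.658 of the 3 h level in these 4 groups.

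Bcl6 lies on the minus strand of chromosome 16 (GRCm38, chr16:23965052-23988852). Windows before 2 of its annotated starts are shown because it was the member called in every time comparison, and because its protein recognises a sequence close to the STAT motif TTCNNNGAA, in which N is any base. Both windows are from RefSeq (GRCm38.p6), 250 bases upstream of a start and written 5′ to 3′ on the minus strand, the first at chr16:23988853-23989102 and the second, inside the span of the gene, at chr16:23981284-23981533. Capitals mark TTCNNNGAA, a palindrome that reads alike on both strands.
Bcl6 first start: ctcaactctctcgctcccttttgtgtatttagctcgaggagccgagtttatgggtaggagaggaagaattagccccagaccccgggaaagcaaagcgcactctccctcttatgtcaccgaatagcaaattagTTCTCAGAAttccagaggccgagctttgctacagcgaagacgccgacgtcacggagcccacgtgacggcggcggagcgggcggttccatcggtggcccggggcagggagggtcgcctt
Bcl6 second start: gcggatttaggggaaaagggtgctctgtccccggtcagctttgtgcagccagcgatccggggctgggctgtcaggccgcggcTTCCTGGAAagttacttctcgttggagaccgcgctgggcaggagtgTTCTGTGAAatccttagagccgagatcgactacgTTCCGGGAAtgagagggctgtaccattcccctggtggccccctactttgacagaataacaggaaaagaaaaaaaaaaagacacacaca
The first window held 1 match and the second held 3, while 7.02% of all 32851 windows held at least 1. Among the 26 members with 46 windows in all, 2 held the motif in at least 1. No occupancy was measured, and the matches describe letters only.

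Sla, the Src-like adaptor of cortical neurons and lymphocytes, was the only other member that edgeR called between times. In PFC after saline it was at 12.8 to 21.4 CPM (median 15.7) at 3 h and at 8.83 to 17.7 CPM (median 13.2) at 4 weeks, with overlap, and the log2 fold change was -0.40 (SE 0.12, edgeR adjusted p = 0.0455). The difference was -0.59 within pool C and -0.23 within pool D, and 6 of 18 alternative settings lost the call (adjusted p up to 0.138), with log2 fold changes of -0.49 to -0.38 over all 18. In PFC after psilocybin it was at 10.5 to 16.6 CPM (median 15.4) and then at 11.99 to 14.7 CPM (median 13.4). The time change of Sla after saline minus that after psilocybin did not pass the test (-0.27, SE 0.18, edgeR adjusted p = 1, and -0.29, limma-voom adjusted p = 0.608).

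**Figure D4:**
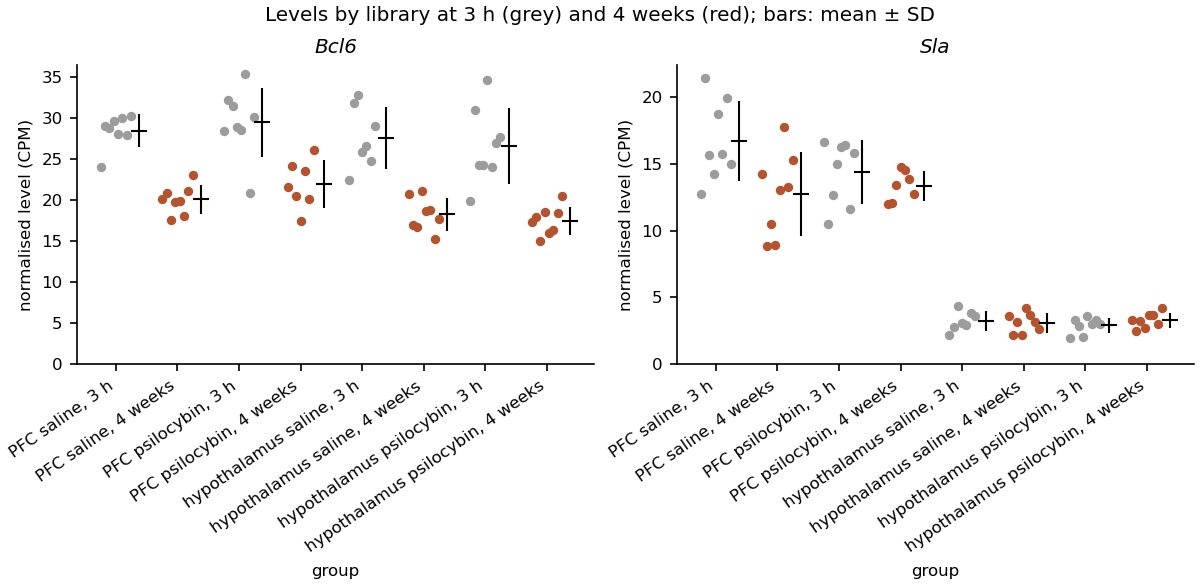
Levels in CPM (vertical axis) of Bcl6 and Sla in each library at 3 h (grey) and 4 weeks (red) for each region and treatment (horizontal axis), with the mean and standard deviation. Bcl6 is lower at 4 weeks in all 4 pairs, with medians of 28.9 and 20.01 CPM in PFC after saline, whereas the Sla groups overlap in every pair.

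Counted over the list, edgeR called 2 members lower in PFC after saline (2.39% of all genes called lower), 1 in PFC after psilocybin (2.7%), 1 in hypothalamus after saline (0.522%) and 1 in hypothalamus after psilocybin (0.743%), and none higher. In PFC after psilocybin limma-voom called 4 members lower, beside 9.63% of all genes called lower: Bcl6, Calb1 (log2 fold change -0.32), Lhx2 (-0.23) and Neurod6 (-0.28). Without weights it called Bcl6 alone, here and in hypothalamus after psilocybin. In hypothalamus after psilocybin limma-voom called 2 members beside 3.31% of all genes, Bcl6 and Tbr1, the latter higher at 4 weeks (log2 fold change 0.66, adjusted p = 0.0128). Tbr1 was at 3.52 to 8.80 CPM (median 5.58) at 3 h and at 4.90 to 11.4 CPM (median 7.72) at 4 weeks, and the overlapping groups were not called apart by edgeR (log2 fold change 0.50, adjusted p = 0.104).

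Markers of other cells were read beside Bcl6 because many cell types make it. The summed level of 6 microglial markers in PFC after saline was 384 to 697 CPM (median 593) at 3 h and 386 to 603 CPM (median 520.5) at 4 weeks, and that of 6 astrocyte markers was 1442 to 2782 CPM (median 2334) and 1429 to 2634 CPM (median 1927). In hypothalamus after saline the microglial sum was 251 to 335 CPM (median 318) and then 274 to 369 CPM (median 314). The endothelial sum of 6 markers there was 93.3 to 199 CPM (median 107) and then 76.8 to 188 CPM (median 112). In hypothalamus after psilocybin the endothelial sum was 74.9 to 173 CPM (median 137) and then 89.3 to 144 CPM (median 106), the median being lower at 4 weeks as for Bcl6, while the microglial median was 274 CPM and then 321 CPM. In PFC after psilocybin the microglial median was 582 CPM and then 529.9 CPM, and the astrocyte median 2306 CPM and then 2229 CPM. The sum of 6 oligodendrocyte markers in hypothalamus had medians of 8427 and then 7595 CPM after saline, and of 9224 and then 7523 CPM after psilocybin. The sum of the 29 other excitatory genes in PFC had medians of 9880.4 and then 8906 CPM after saline, and of 10036.5 and then 9015 CPM after psilocybin. These oligodendrocyte medians in hypothalamus and excitatory medians in PFC were lower at 4 weeks, as for Bcl6. In PFC the oligodendrocyte medians were higher at 4 weeks, at 3428 and then 3783 CPM after saline and 4198 and then 4218 CPM after psilocybin. In hypothalamus the excitatory medians were 2473 and then 2491 CPM after saline, and 2497 and then 2471 CPM after psilocybin. The ranges of all these sums overlapped between times, and their part in the Bcl6 result was not tested.

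Among the 29 other excitatory genes, edgeR called 2 lower at 4 weeks in PFC after saline, beside 2.39% of all genes called lower. These were the pseudokinase gene Trib2 (log2 fold change -0.48, adjusted p = 0.000201) and Stard8 (-0.32, adjusted p = 0.0485). In PFC after psilocybin it called 3, beside 2.7% of all genes called lower: Trib2 (-0.51, adjusted p = 0.000154), Stard8 (-0.41, adjusted p = 0.0104) and the matricellular gene Ccn2 (-0.96, adjusted p = 0.0108). It called 0 in hypothalamus under either treatment, with 3 after saline and 2 after psilocybin at an unadjusted p under 0.05, beside 8.09% and 17.4% of all genes. There limma-voom called 2 after saline, beside 7.45% of all genes, and 0 after psilocybin.

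The balance between upper and deep layer genes was computed for each PFC library as the mean log2 level of the 6 upper layer genes minus that of the 11 deep layer genes. It has no test, since it is a score over chosen genes. At 3 h it was 1.39 to 2.35 (mean 1.80, SD 0.32) after psilocybin and 1.25 to 2.13 (mean 1.74, SD 0.31) after saline. At 4 weeks it was 1.39 to 2.05 (mean 1.75, SD 0.23) after psilocybin and 1.32 to 2.42 (mean 1.73, SD 0.35) after saline. The differences between treatments, 0.06 and 0.02, were smaller than the spread within each group. With medians over genes in place of means they were -0.02 and -0.03, also within that spread.

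**Figure D5:**
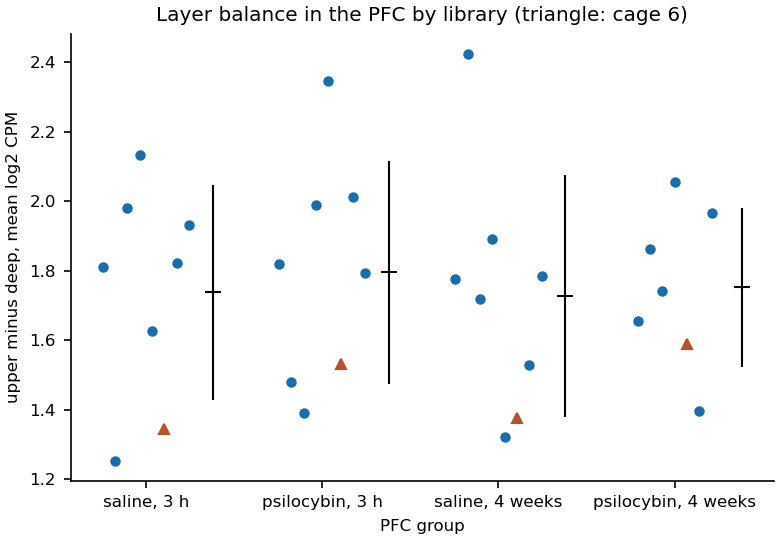
Mean log2 level of 6 upper layer genes minus that of 11 deep layer genes (vertical axis) in each PFC library by treatment and time (horizontal axis), with the mean and standard deviation and with triangles for the libraries of cage 6. The 4 groups share the range from 1.39 to 2.05, with means of 1.73 to 1.80.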

How the data were processed

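Poly-A RNA was sequenced as stranded, paired-end libraries (TruSeq stranded mRNA, 52 bases). The authors demultiplexed with bcl2fastq 2.20.0, aligned with STAR 2.7.2b to GRCm38 with GENCODE annotation and counted reads per gene with featureCounts 1.6.2. Raw counts for 64 libraries were deposited, and no other per-sample values were used. Gene overlap on the opposite strand was read from GENCODE exons and covered at most 9.25% of a member's exon bases (Sox5).

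Libraries with at least 1000000 counts were kept (62, of 8061033 to 70361839 counts). edgeR 4.0.16 (R 4.3.3) was run with TMM scaling, filterByExpr by group (minimum count 10), a design of group plus extraction pool within region, and a robust quasi-likelihood F test, with Benjamini-Hochberg adjustment over 18971 genes and a threshold of 0.05. Each comparison was also run with limma 3.58.1 after the study's methods (voomWithQualityWeights, the animal as a random block, consensus correlation 0.0282), and with DESeq2 1.42.0. In limma each contrast was refitted as a coefficient, whereas the paper refers to the limma manual for its contrasts. Contrasts taken after the fit were run as alternatives. The study also left out a further library, which is not identified in the sources used here and was kept. RPKM was computed here from the gene lengths of the deposited table. The scripts were checked on simulated data with 200 changed genes. Replicates were separate mice. Regional and time differences were read for each gene from the same fit.

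The 36 members and all gene lists were chosen with earlier results of these data known. Values per group were given for every member called by edgeR between treatments, times or responses, for the 3 members with the smallest p in each psilocybin comparison, for the 12 largest regional differences and for every member not higher in PFC. Replicate numbers are cage numbers, and the correlation of same-cage deviations was over 0.1 in every pair for none of the 8 comparisons, so cages were not treated as pairs. It was over 0.1 in 6 of 7 pairs for psilocybin against saline in PFC at 4 weeks (mean 0.18, or -0.01 with the pool removed). Between times in PFC after psilocybin it was over 0.1 in 5 of 7 pairs (mean 0.14, or 0.05 with the pool removed). Each mouse gave both regions. The edgeR regional values come from the fit of group and extraction pool, which holds no term for the animal. The animal was a block in an alternative edgeR fit and a random block in limma-voom.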

Additional observations from a re-analysis of the deposited data

Results flagged for a closer look

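Dixon's gap ratio was applied to 42 groups of 7 or 8 libraries. They held levels of the members picked by edgeR in the treatment and time comparisons, and the layer balance of each PFC group. Zbtb18, called by limma-voom alone, was not examined. In 6 groups, all of member levels, a library was far from the rest. Chance gives such a library in about 1 in 20 groups. Bcl6 was at 20.9 CPM in PFC psilocybin 3 h replicate 7, below the other libraries at 28.4 to 35.4 CPM. Bcl6 was also low in PFC saline 3 h replicate 1, at 24.1 CPM against 27.9 to 30.2 CPM. Calb1 was at 268 CPM in PFC saline 3 h replicate 3, above the other libraries at 136 to 183 CPM. Hpca was at 186 CPM in hypothalamus saline 4 weeks replicate 6, against 97.9 to 121 CPM. Lmo4 was at 48.3 CPM in hypothalamus psilocybin 3 h replicate 6, against 30.3 to 37.1 CPM. Nrgn was at 167 CPM in hypothalamus psilocybin 4 weeks replicate 5, against 38.1 to 72.7 CPM, and this library had the lowest quality weight by limma-voom, 0.0276. No difference in response between regions or times passed the edgeR test for any member (0 calls, with 1 and 0 members at an unadjusted p under 0.05).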

How the results depend on the processing

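For the 38 log2 fold changes followed gene by gene, 755 recomputed values kept their direction and side of the threshold, 22 gained a call, 6 lost it and 2 reversed. The reversals were the regional differences of Deptor (0.058) and Pcp4 (0.032) by limma-voom with contrasts taken after the fit and pools coded 0 and 1, which by construction compares 1 pool of each region and also called Rorb (0.22, adjusted p = 0.00359). Members outside these 38 values also changed sign between edgeR and limma-voom without a call by either, such as Pcp4 in hypothalamus at 4 weeks (0.18 and -0.13). The number of members called moved by over 1.5 times in 4 comparisons. For psilocybin against saline in PFC at 3 h (0 by edgeR), limma-voom called 3, and 3 without hypothalamus psilocybin 4 weeks replicate 5 or without PFC psilocybin 3 h replicate 7. With contrasts taken after the fit it called 3 members and 1232 genes with pools coded around zero, and 4 members (Neurod1 added, adjusted p = 0.0455) and 1551 genes with pools coded 0 and 1, against 1246 genes with each contrast as a coefficient. For time in PFC after saline (2 by edgeR), 1 member was called with all 64 libraries, with the cage block, without the extraction pool, without the filter on low counts, with the groups of the comparison alone and by limma-voom with the cage block. For time in PFC after psilocybin (1 by edgeR), 4 were called by limma-voom, with or without either of these libraries and under both codings, and 2 by limma-voom with the cage block, while edgeR without PFC psilocybin 3 h replicate 7 called 2, Bcl6 and Calb1 (-0.39, adjusted p = 0.0278). For time in hypothalamus after psilocybin (1 by edgeR), DESeq2 called 3, a minimum of 10 counts in every library gave 2, limma-voom gave 2, also without either library and with pools coded around zero, and limma-voom with the cage block or with pools coded 0 and 1 gave 3. The cause was not tested.

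Leaving out each of the 16 libraries of PFC at 3 h, or each of the 15 of PFC at 4 weeks, gave 0 called members throughout, with log2 fold changes at 3 h of 0.22 to 0.39 for Calb1, 0.24 to 0.46 for Bhlhe22, 0.38 to 0.53 for Neurod1 and 0.13 to 0.27 for Zbtb18, and at 4 weeks of 0.08 to 0.18 for Bcl6, 0.15 to 0.32 for Bhlhe22 and -0.26 to -0.08 for Pcp4. With the cage number as a replicate block, edgeR called 0 members in the 4 psilocybin comparisons and 34 between regions, and with the animal as a replicate block it called 34 between regions, 27 higher and 7 lower. Same-cage correlations of deviations ran from -0.18 to 0.44 in PFC at 3 h, with 3 of 8 pairs over 0.1. Bcl6 kept its call between times in all 18 alternatives of each comparison. Added after seeing the data were the settings without the PFC libraries of cage 6, limma-voom without either named library, limma-voom without weights, with the cage block and with contrasts taken after the fit. Genes near 1 CPM, such as Emx1 and the Neurod family in hypothalamus, are limited by depth.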
